A study of Homo sapiens with 2 samples.

Results

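The miR-30 family was examined in small RNA sequencing of hCMEC/D3, an immortalised line of human brain capillary endothelium in which the blood-brain barrier is studied in culture. Its members were taken as all rows, both arms, of the 6 miR-30 hairpins (hsa-mir-30a, hsa-mir-30b, hsa-mir-30c-1, hsa-mir-30c-2, hsa-mir-30d and hsa-mir-30e, written below without the species prefix): 12 of the 2363 rows of the deposited table, which carry 11 of its 2042 mature miRNA names. The series has 2 libraries of the line, labelled replicate 2 and replicate 8, with no treatment, genotype, time or second group given, so levels, arm use and the difference between these libraries can be described but no conditions compared. Nothing in the labels says that the libraries came from separate cultures, so their spread may be technical.

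A miRNA is cut from a hairpin transcript that yields a 5p and a 3p arm. Usually 1 arm, the guide, stays in the silencing complex and the other, the passenger, is degraded. The guide finds target mRNAs mainly through its seed, bases 2 to 8. miR-30 is a conserved family, in endothelial cells best known for repressing the Notch ligand DLL4 and so promoting vessel sprouting, and elsewhere for repressing SNAI1, a driver of mesenchymal change.

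The 5p arms are shown first because they define the family. Sequences are from RefSeq (GRCh38.p14), which matched 7 of the 11 names and 4 of the 6 hairpins. The arms of miR-30b and miR-30d are named only. Each is written 5′ to 3′ with the seed in capitals.
miR-30a-5p: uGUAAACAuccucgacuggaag
miR-30e-5p: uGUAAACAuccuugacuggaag
miR-30c-5p: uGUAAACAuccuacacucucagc
These 3 arms share their first 12 bases, which hold the seed GUAAACA. Between miR-30a-5p and miR-30e-5p there was 1 difference in 22 bases, C13U (miR-30a base, position from the 5′ end, miR-30e base). Between miR-30a-5p and miR-30c-5p there were 5, all from position 13 on (C13A, G14C, G18C, G19U, A20C).

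The 3p arms are shown because they carry other seeds, and because they are the only reads that tell the 2 miR-30c hairpins apart.
miR-30a-3p: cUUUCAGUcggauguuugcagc
miR-30e-3p: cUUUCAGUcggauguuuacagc
miR-30c-1-3p: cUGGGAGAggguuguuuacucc
miR-30c-2-3p: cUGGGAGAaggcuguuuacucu
The arms miR-30a-3p and miR-30e-3p share the seed UUUCAGU and differ at 1 base (G18A). The arms miR-30c-1-3p and miR-30c-2-3p share the seed UGGGAGA and differ at 3 (G9A, U12C, C22U). No other name of the table with a RefSeq sequence had any of these 3 seeds. The 5p arms shown begin with U and the 3p arms with C. Over 185 hairpins of the table with both arms measured and sequenced, the more abundant arm began with U in 56.8% and the less abundant arm with C in 38.9%.

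The hairpins show where both arms sit, with the mature arms in capitals and the loop between them.
mir-30a: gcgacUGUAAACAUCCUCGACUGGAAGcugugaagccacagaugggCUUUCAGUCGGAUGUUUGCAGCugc
mir-30c-2: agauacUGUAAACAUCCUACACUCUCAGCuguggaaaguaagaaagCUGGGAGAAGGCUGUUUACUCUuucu
mir-30c-1: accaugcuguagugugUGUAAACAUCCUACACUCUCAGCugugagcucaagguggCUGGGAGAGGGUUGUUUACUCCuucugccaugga
mir-30e: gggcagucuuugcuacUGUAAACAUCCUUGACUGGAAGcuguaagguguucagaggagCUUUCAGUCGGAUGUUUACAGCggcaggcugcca
The arms are separated by 19 bases in mir-30a, 17 in mir-30c-2, 16 in mir-30c-1 and 20 in mir-30e.

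The 6 hairpins lie as pairs at 3 loci (GENCODE mapped to GRCh37, where the RefSeq sequence of each of the 4 hairpins shown was found unchanged). MIR30A is on chromosome 6 at 72113254 to 72113324 and MIR30C2 at 72086663 to 72086734, both on the minus strand, with 26.5 kb between them. Both are inside the lncRNA LINC00472 on the same strand. MIR30A is intronic in all 11 LINC00472 transcripts that span it, whereas 1 of the 9 that span MIR30C2 has an exon there. MIR30E is on chromosome 1 at 41220027 to 41220118 and MIR30C1 at 41222956 to 41223044, both on the plus strand, with 2.84 kb between them. Both are intronic in all 16 spanning transcripts of NFYC, which encodes a subunit of the CCAAT-binding factor NF-Y. MIR30B and MIR30D lie 4.27 kb apart on chromosome 8.

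As a check of the cell type, the endothelial miR-126 arms summed to 110105 CPM in replicate 2 and 115735 CPM in replicate 8 (CPM, counts per 1000000 counts of the library). The libraries held 2721287 and 2727675 counts after repeated rows were reduced to 1 per mature name. Of 16 listed markers of mural, neuronal, glial, blood, epithelial, muscle and liver cells, 15 were matched in the table, and these summed to 1195 and 730 CPM. Of the blood markers miR-142-3p, miR-144-3p and miR-223-3p were at 0 in both libraries, which allows up to 1.10 CPM, and miR-451a had 43 and 19 counts. Of the epithelial markers miR-141-3p was at 0 in both, miR-205-5p had 15 and 0 counts and miR-200c-3p had 118 and 85. The liver marker miR-122-5p had 639 and 688 counts. The mural markers miR-143-3p and miR-145-5p summed to 835 and 393 CPM, and their part in the differences between the libraries given below was not tested.

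Each of the 11 miR-30 names reached 10 counts in replicate 2 and in replicate 8, as did 543 of the 2042 names in the table. Together they held 108465 counts in replicate 2 and 117644 in replicate 8. The family's share of all counts was 3.99% (95% Wilson interval 3.96 to 4.01) and 4.31% (4.29 to 4.34), a mean of 4.15% ± 0.23 (SD, n = 2). The 5p arms made up 3.83% ± 0.21 and the 3p arms 0.317% ± 0.025. These intervals cover counting error only, since reads amplified by PCR without molecular identifiers are not independent molecules. Grouped by seed, the 3 arms with GUAAACA and a RefSeq sequence summed to 29684 ± 2265 CPM, which ranked 6 of 1429 seeds, and 8 and 6 in the single libraries. This sum leaves out miR-30d-5p and miR-30b-5p, for which no sequence was matched. All 5 guides of the family summed to 38320 ± 2064 CPM. The seed UUUCAGU of the 3p arms of miR-30a and miR-30e summed to 2056 ± 12.9 CPM and ranked 39. The seed UGGGAGA of the miR-30c 3p arms summed to 1089 ± 231 CPM and ranked 55. These ranks cover the 1716 names with a RefSeq sequence, which held 90.9% and 92.1% of the counts.

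The family was dominated by a single arm. miR-30a-5p, from the chromosome 6 locus, had 68306 counts in replicate 2 and 77799 in replicate 8. Its level was 25101 and 28522 CPM, a mean of 26811 ± 2419 CPM (SD, n = 2). It took 63.0% of the family's counts in replicate 2 and 66.1% in replicate 8, with Wilson intervals of 62.7 to 63.3 and 65.9 to 66.4. It was rank 8 of all mature names by mean level, with rank 11 in replicate 2 and rank 8 in replicate 8. In mean level, the gaps to miR-24-3p above it (28917 CPM) and miR-151a-3p below it (26663 CPM) were smaller than its SD.

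The second was miR-30d-5p from chromosome 8, with 23627 and 22876 counts. Its level was 8682 and 8387 CPM, a mean of 8534 ± 209 CPM (rank 25), and it held 21.8% and 19.4% of the family. miR-30a-5p was 2.89 times as abundant as miR-30d-5p in replicate 2 (exact 95% interval 2.85 to 2.93) and 3.40 times in replicate 8 (3.35 to 3.45). These 2 arms were far above the other 3 guides in both libraries. Ligation efficiency differs between small RNAs, so ratios between names are less secure than the same name compared between libraries.

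miR-30c-5p is listed once under each of its hairpins. The mir-30c-2 row had 5559 and 5313 counts and the mir-30c-1 row 5558 and 5309, so the rows differed by 1 and 4 counts and hold nearly the same reads. Counted once, its level was 2043 and 1948 CPM, a mean of 1995 ± 67.2 CPM (rank 56). miR-30e-5p, from the NFYC intron, had 2555 and 2223 counts, or 939 and 815 CPM, with a mean of 877 ± 87.6 CPM (rank 90). miR-30a-5p exceeded it 26.7 times in replicate 2 (25.7 to 27.8) and 35.0 times in replicate 8 (33.6 to 36.5). These arms differ at 1 base, and how many mismatches the authors' counting allowed is not given in the sources used here, so the lower count of the pair is the less certain. The lowest guide was miR-30b-5p, with 262 and 295 counts, or 96.3 and 108 CPM, and a mean of 102 ± 8.40 CPM (rank 205). It lies 4.27 kb from MIR30D, yet miR-30d-5p was 90.2 times as abundant in replicate 2 (79.8 to 102) and 77.5 times in replicate 8 (69.1 to 87.3). The 3p arms of this pair, both at low counts, did not show that gap. There miR-30b-3p was 1.23 times as abundant as miR-30d-3p in replicate 2 (0.743 to 2.04) and 2.03 times in replicate 8 (1.29 to 3.26).

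**Figure D1:**
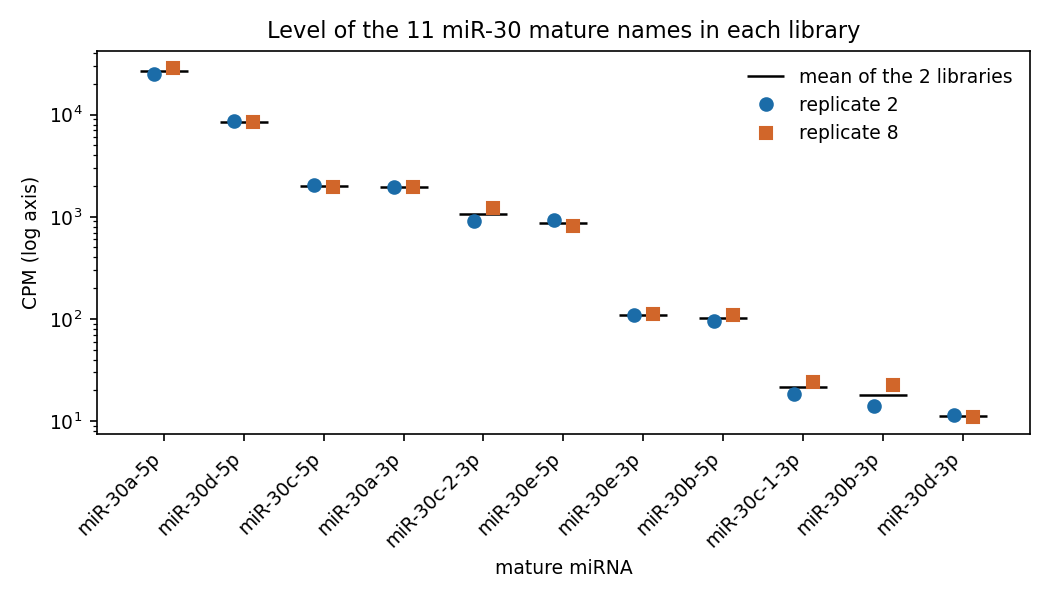
Level of each miR-30 mature name in CPM (log axis), ordered by mean, with replicate 2 as circles, replicate 8 as squares and the mean as a bar. The names span from 26811 CPM for miR-30a-5p to 11.2 CPM for miR-30d-3p. On this wide axis the libraries lie close together, although miR-30c-2-3p had 907 and 1228 CPM and miR-30b-3p 14.0 and 22.4 CPM.

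Among the 3p arms, miR-30a-3p was the highest, with 5272 and 5330 counts and a mean of 1946 ± 11.8 CPM (rank 58). It therefore stood at the level of the guide miR-30c-5p. miR-30c-2-3p followed with 2468 and 3349 counts, or 907 and 1228 CPM, a mean of 1067 ± 227 CPM (rank 82), above the guide miR-30e-5p in the mean. miR-30e-3p had 297 and 302 counts (110 ± 1.12 CPM). The other 3 were low: miR-30c-1-3p had 50 and 66 counts (21.3 ± 4.12 CPM), miR-30b-3p had 38 and 61 (18.2 ± 5.94 CPM) and miR-30d-3p had 31 and 30 (11.2 ± 0.28 CPM). From miR-30a-5p to miR-30d-3p the mean levels differed 2395-fold. Of the 10 gaps between neighbours in the order of means, 4 were within the larger SD of the pair: miR-30c-5p with miR-30a-3p, miR-30c-2-3p with miR-30e-5p, miR-30e-3p with miR-30b-5p, and miR-30c-1-3p with miR-30b-3p. The first 2 of these pairs changed order between the libraries.

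**Figure D2:**
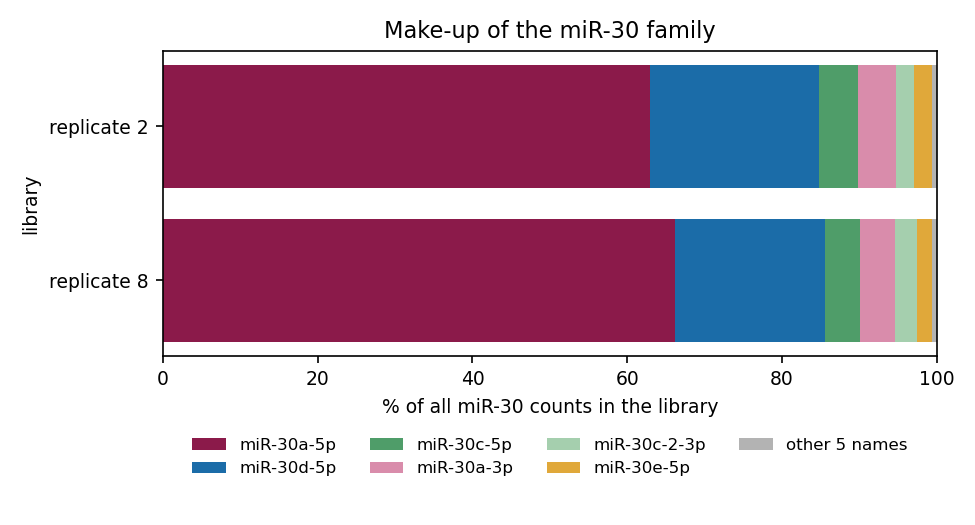
Share of all miR-30 counts in each library taken by each mature name, in percent, as stacked bars that sum to 100%. miR-30a-5p takes 63.0% in replicate 2 and 66.1% in replicate 8, and miR-30d-5p takes 21.8% and 19.4%.

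By locus, the 3p arms came almost wholly from chromosome 6. Of the family's 3p counts, mir-30a and mir-30c-2 gave 94.90% in replicate 2 and 94.98% in replicate 8. The chromosome 1 pair, mir-30e and mir-30c-1, gave 4.25% and 4.03%, and the chromosome 8 pair, mir-30b and mir-30d, 0.846% and 0.996%. The 5p arms, with miR-30c-5p left out because it belongs to 2 loci, had another order: 25101 and 28522 CPM from chromosome 6, 8779 and 8495 CPM from chromosome 8, and 939 and 815 CPM from chromosome 1. The chromosome 8 pair thus ranked above the chromosome 1 pair in 5p counts and below it in 3p counts in both libraries.

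The 3p arms separate the miR-30c hairpins. miR-30c-2-3p, from chromosome 6, was 49.4 times as abundant as miR-30c-1-3p, from chromosome 1, in replicate 2 (exact 95% interval 37.3 to 66.7). In replicate 8 it was 50.7 times as abundant (39.8 to 65.8). The intervals of the 2 libraries overlapped. The hairpins beside them showed the same direction: miR-30a-3p was 17.8 times as abundant as miR-30e-3p in replicate 2 (15.8 to 20.02) and 17.6 times in replicate 8 (15.7 to 19.9). The arms miR-30a-3p and miR-30e-3p differ at 1 base and the mismatch setting is not given, so the lower count, miR-30e-3p, is the less certain. How many miR-30c-5p reads came from each hairpin cannot be told apart from these counts. Within the chromosome 6 locus, miR-30a-3p exceeded miR-30c-2-3p 2.14 times in replicate 2 (2.04 to 2.24) and 1.59 times in replicate 8 (1.52 to 1.66), so this ratio moved by more than counting error.

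Arm use was taken as the 5p share of the counts of both arms of a hairpin. With counts as listed under each hairpin, the 5p arm was the more abundant in 6 of 6 miR-30 hairpins. Among the 212 hairpins of the table whose arms together had at least 50 counts per library, it was so in 55.2%. Some of the 212 hold equal values, such as mir-9-1, mir-9-2 and mir-9-3. Shares and percentiles over the 212 therefore count such miRNAs more than once. The hairpins mir-30c-1 and mir-30c-2 list nearly the same 5p reads, so the leading arm of each of these 2 alone is not settled. Counted once against both 3p arms, miR-30c-5p held 68.8% in replicate 2 and 60.9% in replicate 8. The median share of the major arm was 91.0% over the 6 and 96.5% over the 212. In 3 of the 6, mir-30c-1 among them, the 5p arm held over 90% in both libraries, against 67.9% of the 212 in which either arm did.

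The most one-sided hairpin was mir-30d, with a 5p share of 99.87% in either library. mir-30c-1 followed at 99.1% in replicate 2 (98.8 to 99.3, 95% Wilson interval) and 98.8% in replicate 8 (98.4 to 99.0), although its 5p count may hold reads of mir-30c-2. For mir-30a the share was 92.8% (92.6 to 93.0) and 93.6% (93.4 to 93.8). For mir-30e it was 89.6% (88.4 to 90.7) and 88.0% (86.7 to 89.2), and for mir-30b 87.3% (83.1 to 90.6) and 82.9% (78.6 to 86.4). Apart from mir-30c-2, the 5 hairpins had at least 82.9% of their listed counts on the 5p arm. For mir-30c-1 this share is an upper value, so the bound is not settled for it.

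With counts as listed under each hairpin, mir-30c-2 had the most even arms. Its 5p share was 69.3% (95% Wilson interval 68.2 to 70.3) in replicate 2 against 61.3% (60.3 to 62.4) in replicate 8. Since some of the 5p counts may be those of mir-30c-1, these are upper values for this hairpin. With miR-30c-5p set once against both miR-30c 3p arms, the share was 68.8% and 60.9%. The share on its own row was 7.92 percentage points lower in replicate 8, a larger change than in 94.8% of the 212 hairpins. The Wilson intervals of the libraries did not overlap for mir-30c-2 and mir-30a, 2 of the 6, against 18.4% of all 212 hairpins. Such intervals narrow as counts rise, so these shares depend on depth. For mir-30a the change was 0.753 percentage points, close to the median absolute change over all hairpins of 0.758.

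**Figure D3:**
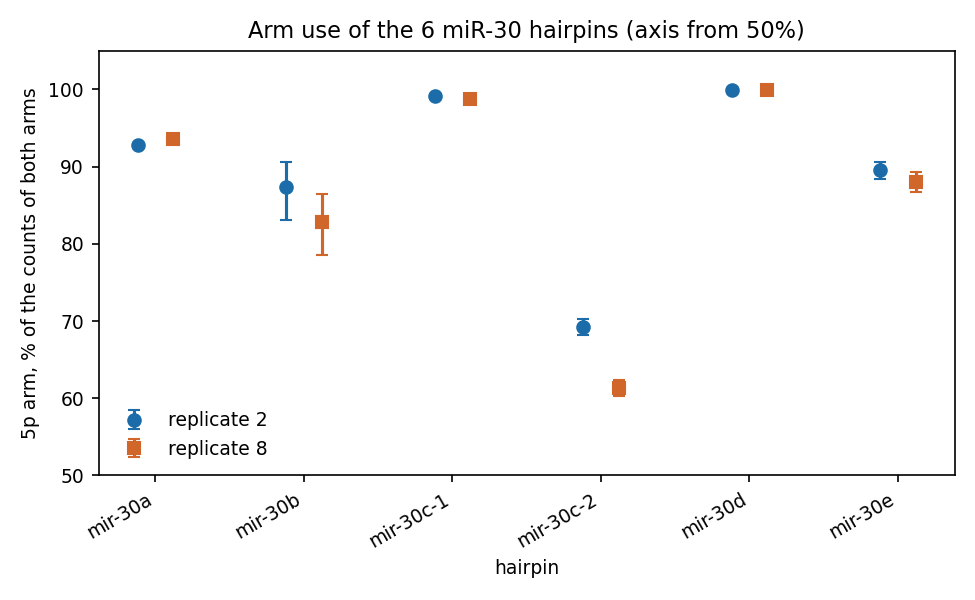
Counts on the 5p arm as a percentage of both arms (axis from 50%) for each miR-30 hairpin, with replicate 2 as circles, replicate 8 as squares and bars for the 95% Wilson interval. mir-30c-2 lies lowest, at 69.3% and 61.3%, and the other 5 hairpins lie at or above 82.9%. The 2 miR-30c hairpins list nearly the same 5p reads, so their values are upper ones.

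The libraries were compared name by name with a two-sided exact binomial test of the replicate 8 count given the sum of both, adjusted over all 695 names with at least 10 summed counts. The test compares 2 libraries, not conditions, and knows counting error only. It finds smaller differences at higher counts. Of the 11 miR-30 names 9 had at least 100 summed counts, against 367 of the 695, so the shares called are not like for like. Of the 11 miR-30 names 5 had an adjusted p under 0.05, against 34.2% of all names tested. Of these, 2 were higher in replicate 8 (10.8% of all names were) and 3 lower (23.5% of all names). The median log2 ratio of replicate 8 over replicate 2 was 0.02 over the 11 names and -0.11 over all 695. The direction depended on the library scaling: with TMM sizes, which raise each log2 ratio by 0.09, 6 of the 11 passed (32.2% of all names), 5 higher and 1 lower, against 15.1% and 17.1% of all names. With DESeq2 size factors, which raise it by 0.11, 5 passed (31.9% of all names) and all 5 were higher (16.5% of all names, with 15.4% lower).

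Of the names that passed with total counts, miR-30c-2-3p had the largest absolute log2 ratio. Its levels were 907 CPM in replicate 2 against 1228 CPM in replicate 8. Its log2 ratio was 0.44, with an exact interval of 0.36 to 0.51 and an exact binomial adjusted p of 3.3e-29. Its absolute ratio was larger than that of 83.9% of the 174 names with at least 1000 summed counts, whose median was 0.17, and larger than that of 74.4% of the 367 names with at least 100. The guide miR-30a-5p was also higher in replicate 8, where its log2 ratio was 0.18, with an interval of 0.17 to 0.20 and an exact binomial adjusted p of 8.2e-130. That absolute ratio exceeded 52.3% of the 174 names and 43.3% of the 367. With the sign kept, the ratio of miR-30a-5p was above that of 84.5% of the 174 names, and the ratio of miR-30c-2-3p above 95.4%. Both stayed higher under either alternative scaling.

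Among the lower names, miR-30e-5p had 939 CPM in replicate 2 against 815 CPM in replicate 8. Its log2 ratio was -0.20, with an interval of -0.29 to -0.12 and an exact binomial adjusted p of 7.5e-06. It remained lower at -0.12 with TMM sizes (exact binomial adjusted p = 0.018) and at -0.09 with DESeq2 size factors, where it no longer passed (exact binomial adjusted p = 0.088). For miR-30c-5p the ratio was -0.07 (exact binomial adjusted p = 0.040) and for miR-30d-5p it was -0.05 (exact binomial adjusted p = 0.00091), and both turned positive with either scaling. For miR-30d-5p the call itself turned, to 0.04 with TMM sizes (exact binomial adjusted p = 0.021). No direction is therefore given for these 2 guides.

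The other 6 names did not pass. miR-30a-3p was at a log2 ratio of 0.01 (interval -0.04 to 0.07), so its level was nearly the same in both libraries while its cluster neighbour miR-30c-2-3p and its own 5p arm were higher in replicate 8. With TMM sizes it was called higher at 0.10 (exact binomial adjusted p = 0.0019). miR-30e-3p was at 0.02 (-0.22 to 0.26) and miR-30b-5p at 0.17 (-0.08 to 0.41). The low names had wide intervals: miR-30b-3p was at 0.67 (0.07 to 1.30, exact binomial adjusted p = 0.072), miR-30c-1-3p at 0.39 (-0.15 to 0.96) and miR-30d-3p at -0.05 (-0.82 to 0.72). With TMM sizes miR-30b-3p passed at 0.76 (exact binomial adjusted p = 0.038). The intervals give the range of ratios that counting error alone leaves for these counts, and are not limits of detection.

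**Figure D4:**
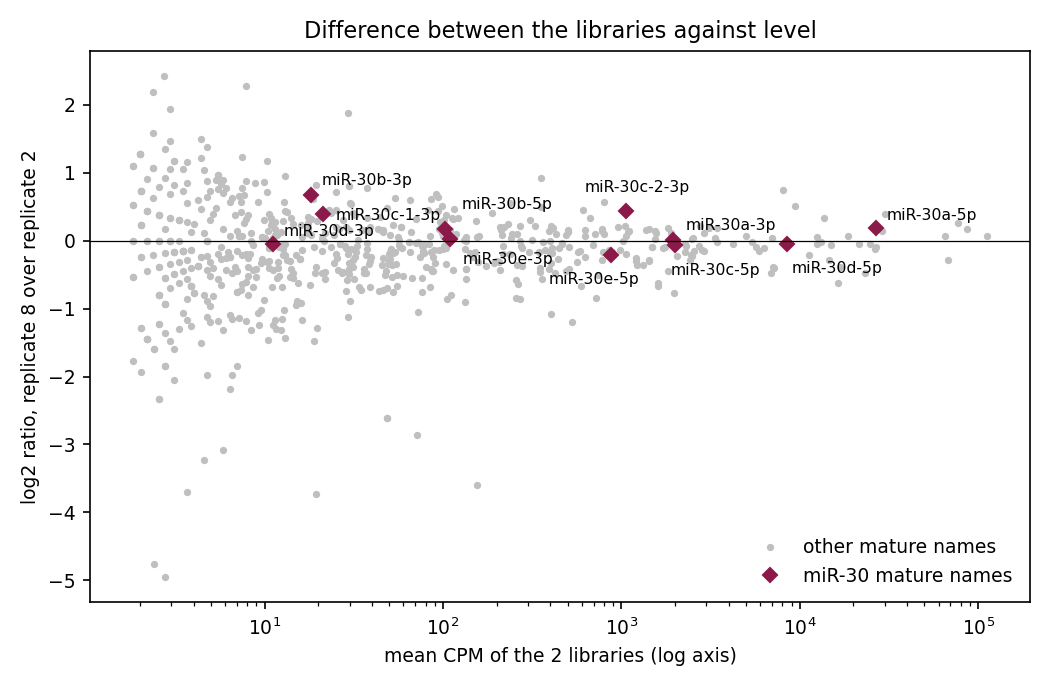
Log2 ratio of replicate 8 over replicate 2 against mean CPM (log axis) for the 695 names tested, with the miR-30 names as diamonds. The 11 diamonds lie between -0.20 and 0.67, within the cloud of the other names, with miR-30c-2-3p at 0.44 near its upper edge for that level.

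The names nearest to each guide in mean level were taken as a yardstick. Beside miR-30d-5p were let-7g-5p (9402 ± 2324 CPM) and let-7f-5p (8017 ± 2858 CPM), whose libraries differed far more than those of miR-30d-5p (SD 209 CPM). Beside miR-30c-5p were miR-31-5p (2050 ± 230 CPM) and miR-1246 (1974 ± 732 CPM), and beside miR-30e-5p were miR-107 (886 ± 73.9 CPM) and miR-339-3p (848 ± 54.1 CPM). Beside miR-30b-5p were miR-1296 (104 ± 17.3 CPM) and miR-532-3p (101 ± 3.54 CPM). The gap between each guide and its neighbour was within the larger SD of the pair, which for miR-30d-5p is that of the let-7 arms: they lay outside its own SD. Over the 9 miR-30 names whose counts summed to 100 or more, the median absolute log2 ratio was 0.17, and over all 367 such names it was 0.21.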

How the data were processed

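Small RNA of hCMEC/D3 cells was sequenced in 2 libraries. Per the submitters' processing notes, CASAVA 1.9, FastQC, cutadapt, Bowtie 0.12.7 and hg19 were used; the counter, mismatch setting and miRBase release are not given in the sources used here. The authors deposited raw counts per mature name and hairpin and, per the file headers, RPM, whose denominators (3180045 and 3205752) exceed the summed count columns with repeated rows included (3167238 and 3195174); what makes up the rest is not given. Repeated mature names were reduced to their row of highest mean. CPM used these totals. Wilson intervals, exact binomial tests (scipy 1.17.1, Benjamini-Hochberg) and log2 ratios with 0.5 counts added were computed, with TMM (edgeR 4.0.16) and DESeq2 1.42.0 size factors as alternatives. Intervals of ratios between names and of log2 ratios are exact (Clopper-Pearson). edgeR's quasi-likelihood test needs 2 groups and was not run. The binomial test was also run on counts simulated with counting error only. This cannot show how it behaves with further spread between libraries. All miR-30 rows, the nearest names in level to each guide and the markers are named. The members, lists and tests were chosen with earlier results of these data known. The comparison with names of at least 1000 summed counts was chosen after seeing the data.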

Additional observations from a re-analysis of the deposited data

How the results depend on the processing

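Of 23 recomputed values of 5 summary results, 9 were fixed by construction and show nothing about stability: 6 shares with 1 library left out, which cannot leave 1 SD when n = 2, and 3 counts of detected names under looser limits. Of the other 14, 7 stayed within their limit (1 SD for shares, 1.5 times for counts) and 7 moved. The family share of 4.15% was 3.72% with all rows summed, 3.54% on the deposited RPM, 4.67% with miR-126-3p removed from the total and 3.83% with 5p arms only (chosen after seeing the data). These follow from what is counted. The single libraries gave 3.99% and 4.31%. The median 5p share of 91.0% was 88.8% with miR-30c-5p counted once, and 90.8% and 91.2% in the single libraries. The miR-30a-5p share of the family, 64.6%, was 61.6% with both miR-30c-5p rows summed, 69.9% among 5p arms, and 63.0% and 66.1% in the single libraries. The count of 5 names that differed between the libraries was 4 to 6; 8 of the 11 names had at least 100 counts in both libraries. Of 53 log2 ratios of single names, 41 kept direction and call and 6 reversed: miR-30c-5p (0.0181 with TMM sizes, 0.0449 with DESeq2 size factors), miR-30d-5p (0.0368 and 0.0636) and miR-30d-3p (0.0368 and 0.0636). Both scalings raise every ratio. miR-30c-5p lost its call with no filter (exact binomial adjusted p = 0.12). The difference between the libraries could not be recomputed without either of them. No paired analysis was possible because there is 1 group.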
